A study of Arabidopsis thaliana with 4 samples.

Results

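The 44 genes described here encode histones of Arabidopsis thaliana: 13 H2A genes, 11 H2B genes, 9 H3 genes including the centromeric HTR12, 8 H4 genes and 3 genes of the linker histone H1. They are 44 of the 27444 protein-coding genes of the 5 nuclear chromosomes. The members were chosen by histone class, as a list of locus identifiers drawn up when peak results of these same data were known. A peak summit, the point of highest ChIP signal in a peak, was counted for a gene when it lay between 1000 bp outside and 200 bp inside either gene end. Since the choice was made with these summits in view, all counts and folds at the members are descriptions, with no test. The data were ChIP-seq of FLAG-tagged LEC1 in developing seeds, with 2 ChIP libraries and 2 input libraries of total chromatin. All libraries came from pLEC1:LEC1-FLAG lec1-4 plants, that is, mutants of LEC1 that carry a tagged copy under its own promoter, grown at 22°C under days of 16 h light and 8 h dark. The labels call the tissue developing seeds at a mature stage, and no cell type within the seed was separated. Libraries of plants without the tag were not analysed here, so binding of LEC1-FLAG and background of the FLAG antibody cannot be told apart at any gene.

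Histones package DNA into nucleosomes, each a core of paired H2A, H2B, H3 and H4 around which the DNA winds, while H1 binds the linker DNA. Replication-type genes (the ordinary H2A and H2B genes, the H3.1 genes and the H4 genes) supply histones while DNA is copied. Variants are exchanged into chromatin for special uses: H3.3 at transcribed genes, H2A.Z around transcription starts, H2A.W in heterochromatin and CENH3 at centromeres. H2A.X serves in the marking of DNA breaks. LEC1 is an NF-YB subunit of the NF-Y complex, which recognises the CCAAT box, a motif also known from animal histone promoters. Developing embryos are known to pass from cell division to growth and storage.

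Peak calling used 4454133 (replicate 1) and 4493099 (replicate 2) tags of the ChIP libraries, and 7578894 and 9646586 tags of the matching inputs. Replicate 1 had 15542 nuclear summits and replicate 2 had 3777, so a gene without a replicate 2 summit has no listed value there. Fold enrichment is the authors' ratio of ChIP fragments over the summit (the pileup) to the local input background, with 1 added to both. Intervals after folds are 95% exact Poisson intervals of the pileup and cover counting error of the ChIP library only. A gene is called met when it has a summit in its window, and its strongest one by fold represents it. Only reads mapping to 1 place entered the alignments by their file names, and histone genes have near-identical copies. The effect of this on the members was not tested.

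Summits of the LEC1-FLAG ChIP lay at the ends of many histone genes. In replicate 1, 36 of the 44 (81.8%) were met, against 42.4% of all protein-coding genes. In replicate 2, 16 were met, against 12.0% of all genes. All 16 were among the 36, so that 36.4% were met in both replicates, against 11.7% of all genes. The nearest summits of both replicates lay 3 to 75 bp apart at these 16 genes, and all 16 counted when summits had to lie within 150 bp of each other, a rule that 11.1% of all genes passed. Replicate 1 folds at the 16 genes had a median of 8.97, beside 8.51 over the 3201 genes met in both, and those of replicate 2 a median of 3.76, beside 3.45. At a stricter threshold, a −log10 q-value of at least 10 in both replicates, 3 histone genes (6.82%) were left, against 2.58% of all genes. Over all genes met in replicate 1, the median fold was 5.75 at the 36 histone genes and 4.27 at all 11634 genes. The histone genes were thus met more often than genes at large, and with a higher median fold in replicate 1.

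Most of these summits also lay in the window of another gene. Of the 36 strongest replicate 1 summits, 29 (80.6%) were shared with at least 1 other protein-coding gene, against 60.6% of the strongest summits of all genes met. In replicate 2 it was 14 of 16 (87.5%), against 59.1%. Given each to its nearest gene alone, summits of both replicates remained at 13 histone genes (29.5%), against 9.30% of all genes. Counting only summits that lay in the window of no other gene left RAT5 (AT5G54640) and HIS1-3 (AT2G18050), 2 of 44 (4.55%) against 4.66% of all genes. Under that rule, chosen after the data were seen, the histone genes were met no more often than the background. Whether a shared summit belongs to the histone gene or to its neighbour was not tested.

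**Figure D1:**
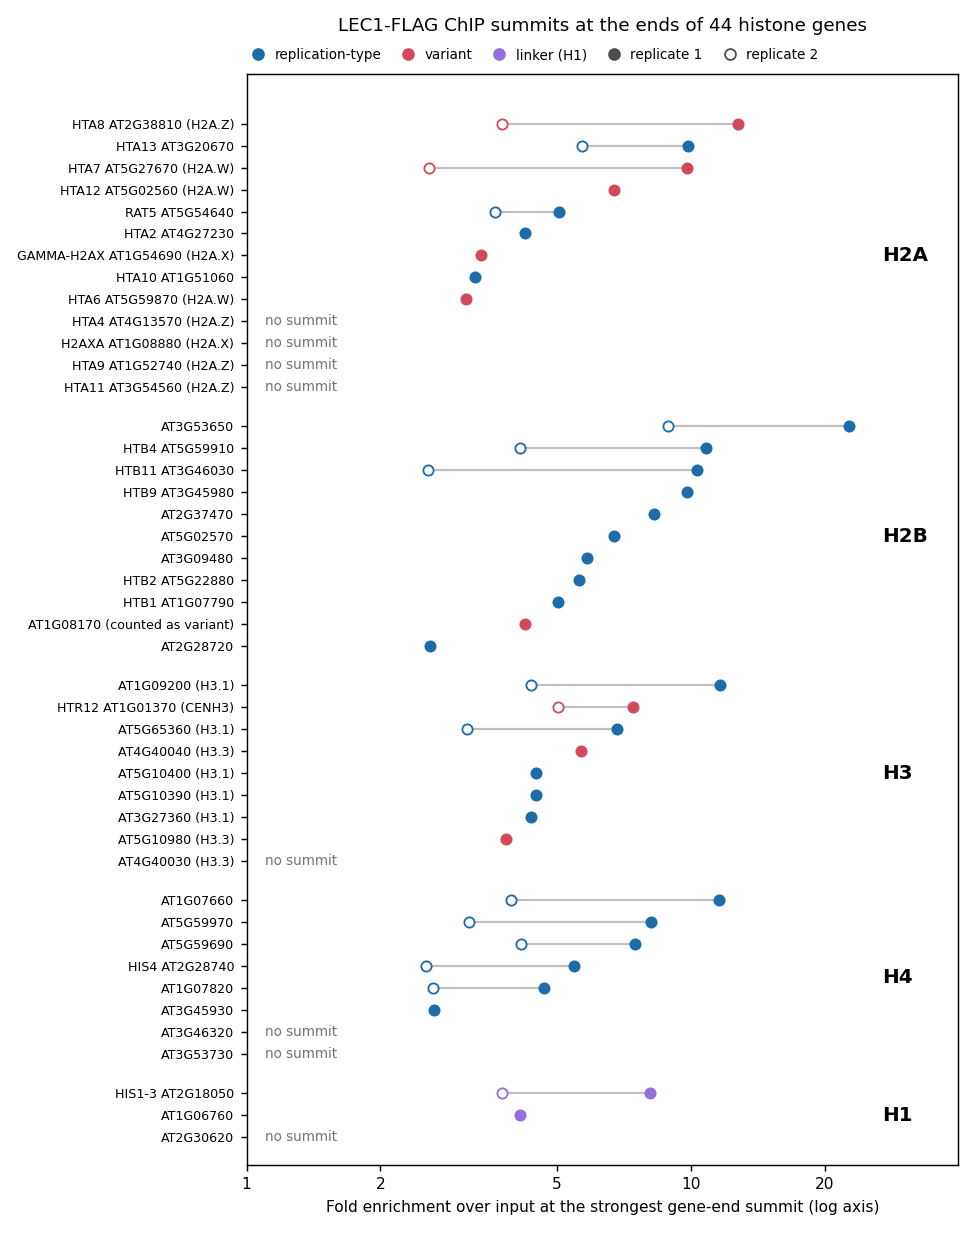
Fold enrichment over input (log axis) at the strongest gene-end summit of each of the 44 histone genes, by class; filled points are replicate 1, open points replicate 2, a grey line joins both, and colours mark replication-type, variant and linker genes. All 11 H2B genes have a replicate 1 point, while 8 genes of the other classes have no gene-end summit in either list.

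Among the H2B genes, AT3G53650 stood first of all 44. Its strongest summit, at chr3:19889199 of TAIR10, had a pileup of 198 fragments and a fold of 22.7 (19.7 to 26.1) in replicate 1. The replicate 2 summit at chr3:19889196 had 70 fragments and a fold of 8.89 (6.96 to 11.2). Among all genes met, this ranked the gene 23rd of 11634 in replicate 1 and 6th of 3307 in replicate 2. The summit lay 98 bp outside the gene and also in the window of AT3G53640. A second pair of summits lay beyond the opposite end, 9.91-fold at chr3:19890372 in replicate 1 and 3.61-fold at chr3:19890350 in replicate 2, shared with AT3G53670. Summits at both gene ends were listed for 10 of the 36 histone genes met in replicate 1 (27.8%), against 15.1% of all genes met. The share was the same among genes between the shortest and longest histone gene, a range not matched to their median length. In replicate 2 they were listed for AT3G53650 alone among 16 (6.25%), against 3.36%.

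The other H2B genes met in both replicates were HTB4 and HTB11. HTB4 (AT5G59910) had 105 fragments and a fold of 10.8 (8.85 to 13.1) in replicate 1, and 30 fragments and a fold of 4.12 (2.82 to 5.83) in replicate 2. The replicate 1 summit lay 88 bp inside the gene, in the window of AT5G59900 as well. HTB11 (AT3G46030) had a fold of 10.3 (8.26 to 12.7) in replicate 1 but 2.56 (1.66 to 3.78) in replicate 2, the lowest ratio of replicate 2 to replicate 1 among the 16, at 0.248. Its summits were shared with AT3G46020 and with RPS15AD, which encodes a ribosomal protein. The strongest replicate 2 summit was nearer to RPS15AD, 189 bp away against 205 bp.

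The remaining 8 H2B genes were met in replicate 1 alone. The strongest was HTB9 (AT3G45980), with 77 fragments and a fold of 9.80 at chr3:16898140, shared with the expansin-like gene EXLA1. AT2G37470 followed with a fold of 8.26, and AT5G02570 with 6.70. The last of these is annotated within the H2A gene HTA12, and both rested on 1 summit at chr5:577283, so it counted for 2 histone genes. AT1G08170, the H2B gene counted here as a variant, had a fold of 4.23. The other 4 (AT3G09480, HTB2, HTB1 and AT2G28720) ran from 2.59 to 5.84. H2B was the only class with every gene met in replicate 1, yet 3 of 11 were met in both. Of all genes, 42.4% were met in replicate 1 and 11.7% in both.

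Of the H4 genes, 5 of 8 were met in both replicates, the highest share of any class at 62.5%, against 11.7% of all genes. It was 3 of 8 when each summit went to its nearest gene, against 9.30% of all genes. When a fold of at least 3 was required it was also 3 of 8, against 7.97%. For H3 it was 3 of 9 under both of these rules. At a −log10 q-value of at least 10 it was 0 of 8 for H4. Only 2.58% of all genes passed that threshold, so 0 of 8 says little about H4. AT1G07660 had a fold of 11.6 (9.40 to 14.1) in replicate 1 and 3.94 (2.61 to 5.75) in replicate 2. That summit lay 390 bp from the H4 gene and 7 bp from DSI-1VOC (AT1G07645), annotated as desiccation-induced, so the nearest gene was the neighbour in both replicates. AT5G59690 had 7.48 (6.03 to 9.17) and 4.14 (2.80 to 5.92), with the summits at most 18 bp from its gene end. They were shared with AT5G59680 and AT5G59700. AT1G07820 had 4.66 and 2.63, and HIS4 (AT2G28740) had 5.46 and 2.54, the lowest replicate 2 fold of the 16. The summits of AT1G07820 were shared with AT1G07830 and those of HIS4 with AT2G28725. In replicate 1 the HIS4 summit was nearer to AT2G28725, 188 bp away against 214 bp.

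AT5G59970 differed from the rest in where its strongest summits lay. In replicate 1 the strongest, 8.15-fold at chr5:24145414, was 417 bp outside one end and 6 bp from AT5G59960. In replicate 2 the single summit, 3.17-fold at chr5:24146789, was 60 bp outside the opposite end, shared with GAF1. Replicate 1 had 3 weaker summits in the window at that end. The nearest was 4.61-fold at chr5:24146849, 60 bp away, and the strongest was 5.78-fold at chr5:24146580.

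The other 3 H4 genes had weak summits or none at their ends. AT3G45930 had a fold of 2.64 in replicate 1 only. AT3G46320 and AT3G53730 had replicate 1 summits 281 and 330 bp inside the gene, at 3.01-fold and 2.88-fold, past the 200 bp limit of the window and so not counted. Just inside the limits, the farthest counted summit of any histone gene lay 966 bp outside the H3.1 gene AT3G27360 in replicate 1, at 2.57-fold. That gene also had one of 4.37-fold at 177 bp. This stronger summit lay inside AT3G27380, past the window of that neighbour, and so was not counted as shared. Among replicate 1 summits outside the window, AT5G59970 had one of 6.42-fold 211 bp inside the gene. The H2A.X gene H2AXA (AT1G08880) had one of 4.05-fold 280 bp inside the gene.

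**Figure D2:**
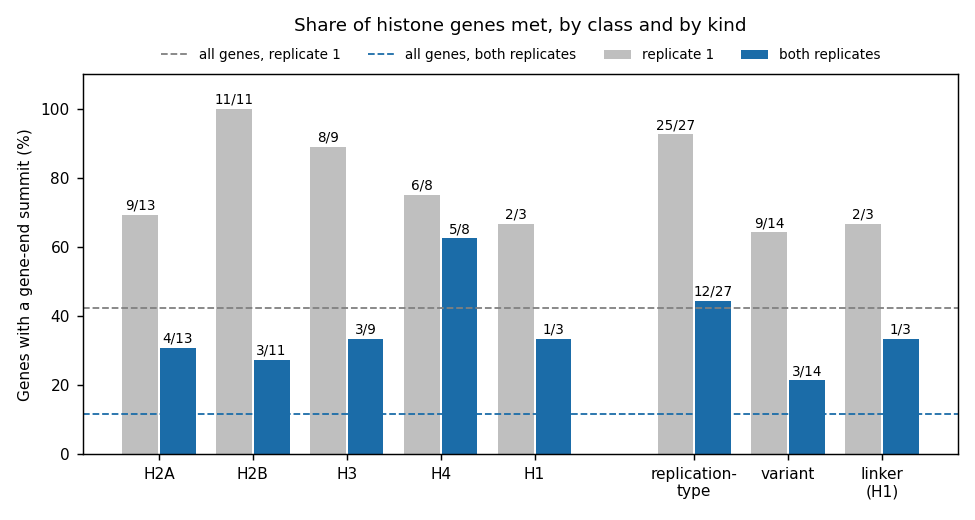
Percentage of genes with a gene-end summit in replicate 1 (grey bars) and in both replicates (blue bars), by histone class and by kind, with counts above the bars and the shares of all protein-coding genes as dashed lines. H4 has the highest share in both replicates, 5 of 8 (3 of 8 by nearest gene or at a fold of at least 3), and replication-type genes have 12 of 27 against 3 of 14 variant genes.

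Of the 9 H3 genes, 3 were met in both replicates, against 11.7% of all genes. The 3 were of different kinds. AT1G09200, an H3.1 gene, had 105 fragments and a fold of 11.6 (9.51 to 14.0) in replicate 1, at chr1:2972320, and 32 fragments and a fold of 4.36 (3.02 to 6.10) in replicate 2, at chr1:2972335. Its summits were 14 bp inside and 1 bp outside the gene and were shared with AT1G09195 and the calreticulin gene CRT1b. AT5G65360, also an H3.1 gene, had 6.82 (5.34 to 8.60) and 3.13 (2.05 to 4.60), and its neighbour at that summit was HTR11 (AT5G65350), an H3-like gene outside the list.

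HTR12 (AT1G01370), the single gene for centromeric H3, had 98 fragments and a fold of 7.42 (6.04 to 9.03) in replicate 1, and 35 fragments and a fold of 5.02 (3.54 to 6.92) in replicate 2. Input background at this summit, with the added 1, was 13.3 fragments in replicate 1, a value reached also at the H1 gene AT1G06760 and the highest among the members' strongest summits, whose median was 9.41. In replicate 2 it was 7.18, against a median of 7.49. Its replicate 2 fold was 0.676 of that in replicate 1, where the median of the 16 genes was 0.425. Its summits were 130 and 78 bp inside the gene and also in the window of ETC1, a MYB-type regulator of epidermal patterning.

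The other H3 genes were met in replicate 1 alone or not at all. The adjacent H3.1 genes AT5G10390 and AT5G10400 shared 1 summit of 4.49-fold at chr5:3269718, which lies between them and in the window of RING1 as well. The H3.3 genes AT4G40040 and AT5G10980 had 5.67-fold and 3.83-fold, and AT4G40030 had none in its window, the nearest being that of AT4G40040, 1886 bp away. None of the 3 H3.3 genes and 2 of 5 H3.1 genes were met in both replicates, beside 11.7% of all genes. With so few genes, no difference between H3.3 and H3.1 can be read from these counts.

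Of the 13 H2A genes, 4 were met in both replicates, against 11.7% of all genes. HTA8 (AT2G38810), an H2A.Z gene, had 112 fragments and a fold of 12.8 (10.5 to 15.3) in replicate 1, the second highest of the 44 genes, and 27 fragments and a fold of 3.75 (2.52 to 5.39) in replicate 2. Its summits lay 717 and 675 bp outside the gene, the farthest of the strongest summits, and nearer to AT2G38820, 170 bp away in replicate 1. The other H2A.Z genes, HTA4, HTA9 and HTA11, had no gene-end summit in either list, and the nearest replicate 1 summits lay 7816, 3743 and 15837 bp from them.

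HTA13 (AT3G20670), a replication-type H2A gene, had 9.85 (7.91 to 12.1) and 5.70 (4.09 to 7.74), at chr3:7229343 and chr3:7229338. Its replicate 2 fold was the second highest of the 16, behind AT3G53650. The summits lay 47 and 52 bp outside the gene and were shared with AT3G20680 and OCT4, an organic cation transporter gene. RAT5, the H2A gene known for its need in Agrobacterium transformation of roots, had 5.05 (3.76 to 6.64) and 3.63 (2.45 to 5.19), with summits 105 and 82 bp inside the gene and no other gene in reach. HTA7 (AT5G27670), an H2A.W gene, had 9.78 (7.93 to 11.9) but 2.58 (1.66 to 3.85), with the helicase gene RECQSIM as neighbour. HTA12, HTA2, GAMMA-H2AX, HTA10 and HTA6 were met in replicate 1 alone, at folds of 3.12 to 6.70.

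Of the 3 linker histone genes, 1 was met in both replicates, against 11.7% of all genes: HIS1-3 (AT2G18050), the drought-inducible H1. It had 69 fragments and a fold of 8.10 (6.33 to 10.2) in replicate 1 at chr2:7845927, and 25 fragments and a fold of 3.76 (2.49 to 5.49) in replicate 2 at chr2:7845963. Both summits lay inside the gene, 4 and 40 bp from its end, and in no other gene's window. AT1G06760 had a fold of 4.12 in replicate 1 alone, and AT2G30620 had no summit within 8046 bp.

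By kind, 12 of 27 replication-type genes (44.4%) were met in both replicates, against 3 of 14 variant genes (21.4%) and 1 of 3 linker genes. In replicate 1 it was 25 of 27, 9 of 14 and 2 of 3. Of all protein-coding genes, 11.7% were met in both replicates and 42.4% in replicate 1. The folds overlapped widely: among genes met in both, replication-type genes ran from 4.66 to 22.7 in replicate 1 with a median of 9.00, and the 3 variant genes from 7.42 to 12.8 with a median of 9.78. The replicate 2 medians were 3.79 and 3.75. These folds cover only genes met in both replicates, and being met again went with replicate 1 fold, so they do not compare the kinds as a whole. Over all genes met in replicate 1, the median folds were 5.84 for replication-type and 5.67 for variant genes. Genes without a summit have no fold. The kinds differed in how many genes were met at the main threshold, and with 14 variant genes this difference is a description. With H2A.X counted as replication-type and AT2G37470, AT3G09480 and AT5G02570 left out, the counts were 12 of 26 and 3 of 12. At a −log10 q-value of at least 10 in both replicates, 2 of 27 replication-type and 1 of 14 variant genes were left, against 2.58% of all genes. No difference between the kinds can be read from those counts.

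**Figure D3:**
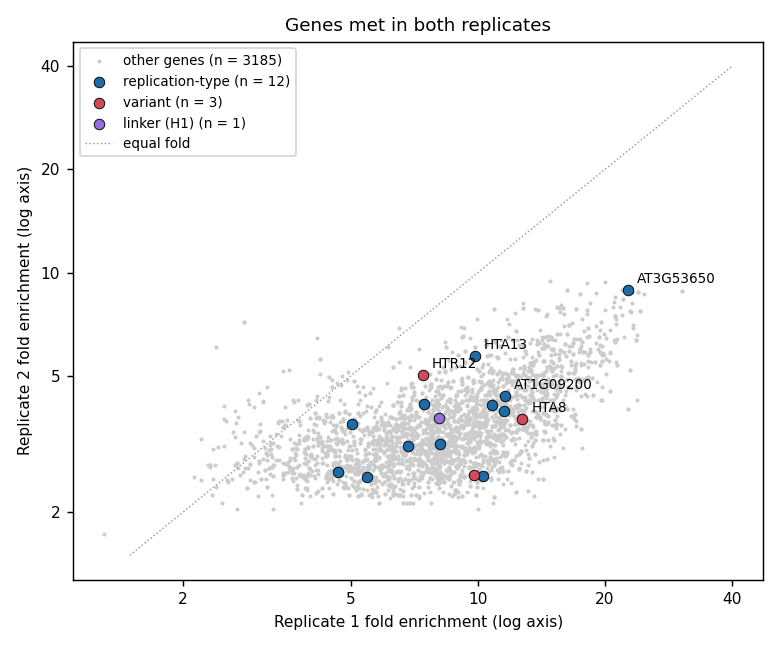
Replicate 1 against replicate 2 fold (both log axes) at the strongest gene-end summit of the 3201 genes met in both replicates; the 16 histone genes are coloured by kind and the dotted line marks equal fold. The histone genes lie within the cloud, all below the line, with AT3G53650 near its upper end.

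All 16 genes had the lower fold in replicate 2. The ratio of replicate 2 to replicate 1 had a median of 0.425 and ran from 0.248 at HTB11 to 0.719 at RAT5, beside a median of 0.410 and a middle 50% of 0.331 to 0.536 over all genes met in both. Each ratio takes the strongest summit of a gene in each replicate, which need not be the same site. At AT5G59970 they lay at opposite gene ends. At HTB11 the replicate 2 summit nearest to that of replicate 1 was the weaker one, at 2.13-fold. Which histone genes appeared in replicate 2 followed their strength in replicate 1, as for genes at large. At a replicate 1 fold of 10 or more, 6 of 6 histone genes were met again, against 96.2% of all such genes. From 5 to below 10 it was 9 of 17 (52.9%) against 46.0%, and below 5 it was 1 of 13 (7.69%) against 6.66%. The genes met again had a median replicate 1 fold of 8.97 and the 20 others one of 4.43, but both groups overlapped, since HTB9 with 9.80 was not met again and AT1G07820 with 4.66 was. At a given replicate 1 fold, the members were met again about as often as other genes. The histone genes were also met more often in replicate 1 itself, 81.8% against 42.4% of all genes, which these fold steps do not address. The cause of their higher share in both lists was not tested.

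**Figure D4:**
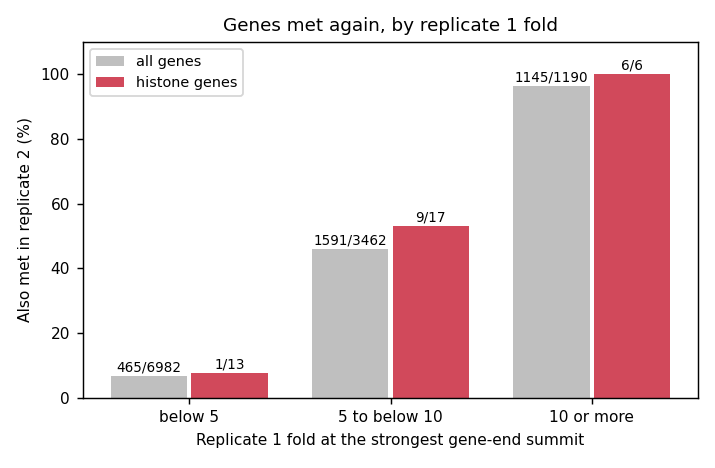
Percentage of genes met in replicate 1 that were also met in replicate 2, by the replicate 1 fold of the strongest gene-end summit, for all genes (grey) and histone genes (red), with counts above the bars. Both rise together, from 6.66% and 1 of 13 below 5-fold to 96.2% and 6 of 6 at 10-fold or more.

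Summits of the histone genes lay close to the gene ends. In replicate 1, 31 of the 36 strongest summits (86.1%) were within 200 bp of the nearer end, against 52.1% over all genes met, and in replicate 2 it was 13 of 16 (81.2%) against 50.6%. The median distance was 81 bp in replicate 1 and 80 bp in replicate 2, against 186 and 197 bp over all genes met. Outside the gene lay 23 of 36 (63.9%) in replicate 1 and 11 of 16 (68.8%) in replicate 2, smaller shares than the 74.6% and 80.4% over all genes met. Strand was not part of the gene table, and a summit at a gene end may lie at either its start or its far end. Histone genes are short, with a median length of 964 bp against 2078 bp over all genes. Among the 19051 genes in the members' length range, 522 to 2991 bp, 40.9% were met in replicate 1 and 11.4% in both, close to the shares over all genes. This range holds most genes and was not matched to the members' median length. Whether gene length affects how often the members were met was therefore not tested.

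**Figure D5:**
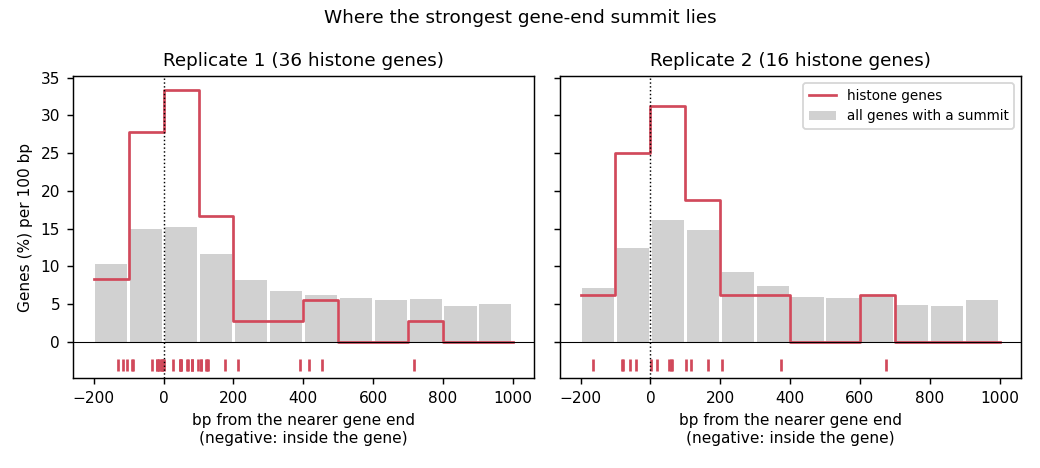
Distance in bp of the strongest gene-end summit from the nearer gene end (negative inside the gene), as a percentage of genes per 100 bp, for all genes met (grey bars) and histone genes (red line, with 1 red tick per gene under the axis), in each replicate. The histone genes pile up around 0, with medians of 81 and 80 bp, and 5 of 36 and 3 of 16 lie beyond 200 bp.

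Genes for histone chaperones and for DNA replication were met in both replicates about as often as genes at large, and somewhat more often in replicate 1. Of all protein-coding genes, 11.7% were met in both replicates and 42.4% in replicate 1. The lists are short, and their counts are descriptions. Of 24 genes for histone chaperones and exchange factors, which hand histones to DNA or swap them, 13 (54.2%) were met in replicate 1 and 2 (8.33%) in both. These were HIRA (AT3G44530), which deposits H3.3, with 11.5 and 3.59, and ASF1B (AT5G38110), an H3 and H4 chaperone, with 4.37 and 2.55. FAS1 and FAS2, subunits of the CAF-1 complex that deposits H3.1, were met in replicate 1 alone, FAS1 (AT1G65470) at 3.39-fold. Of 15 DNA replication genes, 10 (66.7%) were met in replicate 1 and 2 (13.3%) in both, MCM6 (AT5G44635), part of the replicative helicase, with 5.53 and 3.38, and TSO2 (AT3G27060), a ribonucleotide reductase subunit, with 4.40 and 3.13. Of 5 further H3-like genes, 3 (60%) were met in replicate 1 and HTR11 in both, through the summit it shares with AT5G65360.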

How the data were processed

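Chromatin of seeds was precipitated with an antibody against FLAG and sequenced beside input chromatin. Reads were aligned with BWA 0.7.12 to TAIR10 and peaks called with MACS2, per the submitters' processing notes. MACS 2.1.0.20150420 ran on each ChIP library over its own input at a q threshold of 0.05, with fragment extensions of 187 and 149 bp, per the file headers. In the lists that the authors deposited, pileup is a signal in fragments and fold a ratio with 1 added to ChIP and input. Each summit of the deposited lists also has a −log10 q-value and a −log10 p-value. These values describe peaks within a list, and both lists were called separately.

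Gene names, neighbours and distances to gene ends came from a RefSeq table (assembly TAIR10.1), in which all 44 identifiers matched. Symbols are given where that table has them, and the division into kinds is textbook knowledge. The assignment was tested on simulated summits. Chloroplast peaks (292 summits of replicate 2) were left out. The members and lists were chosen with earlier results of these data known. Values are given for every member met in both replicates, the strongest 3 of replicate 1 alone, and genes of the other lists met in both. Further genes were named after their values were seen. Promoter motifs and sequences were not analysed here. The labels number the replicates and do not say whether they shared plants. Python 3.11.15, numpy 2.4.6, pandas 2.3.3 and scipy 1.17.1 were used. Alternatives were other windows, thresholds, assignments and groupings, and each replicate alone.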

Additional observations from a re-analysis of the deposited data

How the results depend on the processing

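The count of 16 histone genes met in both replicates stayed between 12 and 17 under the following settings, while the share of all genes changed with them. It was 15 with windows of 500 bp (against 8.62% of all genes), 17 with 2000 bp (16.6%) and 16 with the whole gene (13.3%). With the nearest gene it was 13 (9.30%), with a fold of at least 3 it was 12 (7.97%), and with summits within 150 bp 16 (11.1%). At −log10 q of at least 10 it fell to 3 genes (AT3G53650, HTA13 and HTR12; 6.82% against 2.58% of all genes), with 1 H2A, 1 H2B, 1 H3, 0 H4 and 0 H1 genes, 2 of replication type and 1 variant. Only with summits in no other gene's window, 2 genes remained (4.55% against 4.66% of all genes). H4 genes numbered 3 with the nearest gene or with a fold of at least 3. On 1 replicate alone, counts ran from 16 to 36 for all members, 4 to 9 for H2A, 3 to 11 for H2B, 3 to 8 for H3, 5 to 6 for H4, 1 to 2 for H1, 12 to 25 for replication-type and 3 to 9 for variant genes, the higher value without replicate 2. Of all protein-coding genes, 12.0% were met without replicate 1 and 42.4% without replicate 2. The share of all genes met in both was 9.91% over all gene types. Summits within 50 bp were found at 12 of the 16 genes. The share of variant genes rests on 14 genes, and the short replicate 2 list limits every count in both. The causes of these changes were not tested. The planned search for promoter motifs was not run. No paired analysis was possible because no result came from a test.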
